A study of Rattus norvegicus with 72 samples.

Results

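The lungs of 12 rats that breathed filtered air were compared: 6 animals whose titles carry the letter H (air H) and 6 whose titles carry the letter L (air L), out of 72 animals in the study. All 12 were adult male Sprague-Dawley rats kept in an inhalation chamber with filtered air (0 ug/m3 of diesel exhaust particles) for 6 hours per day over 4 days, and their lungs were taken 1 day after the last exposure. They were picked by title alone, so no measured value chose them. None received particles, and the labels give the 2 groups the same strain, sex, age, tissue, treatment, duration and time. No label explains the letters. Among exposed animals, 1000 ug/m3 was given to those marked H and 200 ug/m3 to those marked L. The air H animals bear the numbers 001 to 004, 025 and 026, and the air L animals the numbers 049 to 054. Each animal gave 1 library of total RNA from a piece of lung, made after depletion of ribosomal RNA. The labels do not say whether air H and air L animals were exposed, killed or sequenced together, or at which hour of the day they were killed, so letter, cohort and handling cannot be told apart. Rats were housed in pairs, per the labels, but no cage is given, and p-values measure the spread between these animals only.

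A piece of lung holds alveolar epithelium, airway epithelium, a dense capillary endothelium, fibroblasts, smooth muscle and resident immune cells. Lung tissue keeps a basal level of interferon-induced genes: interferons act through receptors on most cells, STAT proteins together with IRF9 enter the nucleus, and genes for antiviral enzymes and for the loading of peptides onto major histocompatibility complex (MHC) class I molecules are transcribed. Heat shock proteins are chaperones that fold and refold proteins, and their genes are controlled by the factor HSF1 in the cytosol and, for the endoplasmic reticulum, by the unfolded protein response. In bulk tissue, fewer cells of a type and less RNA per cell cannot be told apart.

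The 2 air groups differed by modest amounts in 207 of 12304 tested genes, of which 102 were higher and 105 lower in air H (edgeR quasi-likelihood test, Benjamini-Hochberg adjusted p under 0.05). That is 1.68% of tested genes in either direction, 0.829% higher and 0.853% lower. Among the genes lower in air H were members of the interferon and MHC class I pathways, such as Irf9, Oas1a, Psmb10, Tap1 and RT1-A1. Among the genes higher in air H were the chaperones Hsph1, Hspa8 and Hsp90b1. The called changes were small, with a median of 0.42 on the log2 scale among higher genes and -0.56 among lower genes, 61 of the 207 reaching 1.5-fold and 9 reaching 2-fold. Over all tested genes the median log2 fold change was -0.002, and for 93.99% of genes the 95% interval lay within 2-fold. The lowest air H value and the highest air L value, or the reverse, did not overlap for 76 of the 207 (36.7%), against 193 (1.57%) of all tested genes. The 207 were chosen on these same libraries, so a larger share among them is built in and is no separate support.

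Libraries 049 and 051 of air L stood apart from the other 10 air libraries, and the number of calls moved with them and with single libraries of both groups. On the first principal component of the air libraries, which held 26.9% of the variance, air H libraries ranged from -18 to -6.94. The air L libraries 049 and 051 were at 33.5 and 35.4, 050 and 052 at 10.01 and 9.86, and 053 and 054 at -11.3 and -6.85, close to the air H values. The same pairs of air L libraries, 049 with 051, 050 with 052 and 053 with 054, lay close together in the share of counts in Rmrp, the RNA subunit of RNase MRP, chosen here after its values were seen. Rmrp took 0.427, 0.368, 0.546, 0.378, 0.466 and 0.509% of counts in the air H libraries, against 3.69 (049), 1.15 (050), 3.89 (051), 1.17 (052), 0.416 (053) and 0.414% (054) in the air L libraries. The share of counts in genes spanning at least 100 kb was 22.4 to 24.5% in air H libraries and 19.6 (049), 21.9 (050), 19.8 (051), 21.6 (052), 22.97 (053) and 22.8% (054) in air L libraries. Library totals were 1328934 to 2397971 counts in air H and 1288275 to 1691413 counts in air L. In 10 exact two-sided permutation tests of library values between H and L groups at day 1, 6 libraries each, the wide-gene share in air gave p = 0.0238 and the Rmrp share p = 0.0455, and both had an adjusted p of 0.114 over the 10 tests. Without 049 and 051, 0 genes were called. All 207 genes kept their sign, and 205 of them had an unadjusted p under 0.05 (1009 genes of all 12304 did). Their median size was 0.37 on the log2 scale, against 0.50 with all 12 libraries. The 207 were chosen in a fit that holds the other 10 air libraries. These values therefore follow largely from the choice and are no separate support. Without 053 and 054, 1635 genes were called, 204 of the 207 among them. Leaving out single air H libraries gave 87 (001), 20 (002), 134 (003), 2 (004), 111 (025) and 79 (026) called genes. Leaving out single air L libraries gave 5 (049), 54 (050), 5 (051), 29 (052), 869 (053) and 599 (054). The count thus fell as low without air H animal 004 as without 049 or 051. The part of these library values in the gene differences was not tested, and values without 049 and 051 are given beside the gene lists described.

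**Figure D1:**
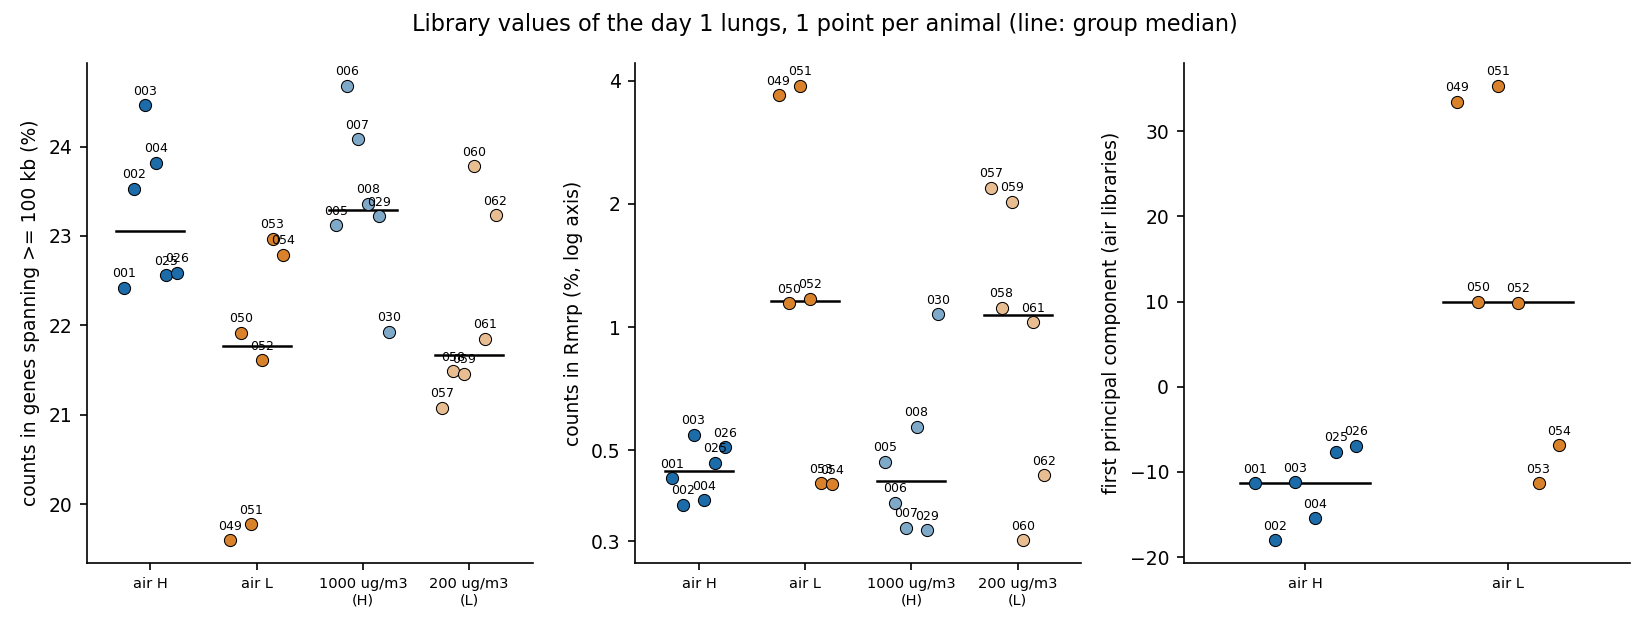
Share of counts in genes that span at least 100 kb, share of counts in Rmrp (log axis) and first principal component of the air libraries, 1 point per animal, with a line at each group's median. The air L libraries 049 and 051 hold 3.69 and 3.89% of counts in Rmrp, above the 0.546% of the highest air H library, while 053 and 054 lie among the air H libraries in the Rmrp share.

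The direction of a call went with the length of the gene. Genes higher in air H had a median span of 55.4 kb, and 32.7% of them spanned at least 100 kb. Genes lower in air H had a median span of 10.2 kb, and 3.06% of them were that wide. All tested genes had a median span of 26.9 kb and a wide share of 15.4%, with spans from the RefSeq table of the assembly GRCr8 for 91.8% of tested genes. With all tested genes split by span into 4 groups of equal size, short to long, the median log2 fold change of air H over air L was -0.118, -0.046, 0.020 and 0.073. Without 049 and 051 it was -0.058, -0.018, 0.018 and 0.041. In the lungs of the exposed animals of day 1, none of which is among the 12, the same 4 groups had -0.116, -0.040, 0.026 and 0.062 for 1000 (H) over 200 ug/m3 (L). In the air animals of the later days, air H over air L had 0.057, 0.036, 0.018 and -0.031 at day 7, which runs the other way, and -0.027, -0.018, -0.016 and 0.033 at day 27. Each of these group medians was under 0.12 in size on the log2 scale. They cover all tested genes and cannot be set against the median of genes picked as called. With the wide-gene share as covariate, an alternative added after seeing the data, 4 genes were called. The part of gene span in the calls was not tested.

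Promoter sequences of 6 genes are shown because the letters of their regulatory elements can be set beside the gene groups that follow. They come from RefSeq on the assembly GRCr8, 250 bases before to 50 after each gene's start, 5′ to 3′ on the gene's strand. Capitals mark the interferon response letters GAAANNGAA or its other strand TTCNNTTTC in the 4 genes lower in air H, and the heat shock letters GAANNTTC, which read the same on both strands, in the 2 genes higher in air H.
Psmb10 (chr19:50743243-50743542, minus strand): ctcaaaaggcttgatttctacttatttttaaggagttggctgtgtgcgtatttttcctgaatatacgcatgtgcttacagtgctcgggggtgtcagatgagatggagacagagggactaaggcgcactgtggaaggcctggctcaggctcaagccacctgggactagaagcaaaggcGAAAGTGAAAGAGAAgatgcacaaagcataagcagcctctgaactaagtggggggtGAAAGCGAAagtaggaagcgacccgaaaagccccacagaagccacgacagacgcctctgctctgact
Tapbp (chr20:4967828-4968127, minus strand): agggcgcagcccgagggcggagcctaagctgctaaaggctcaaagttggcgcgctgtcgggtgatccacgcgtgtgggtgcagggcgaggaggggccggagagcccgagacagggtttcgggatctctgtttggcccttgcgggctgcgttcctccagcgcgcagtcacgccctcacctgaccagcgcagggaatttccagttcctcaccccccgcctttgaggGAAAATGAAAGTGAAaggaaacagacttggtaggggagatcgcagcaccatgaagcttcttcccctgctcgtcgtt
Oas1a (chr12:41330216-41330515, plus strand): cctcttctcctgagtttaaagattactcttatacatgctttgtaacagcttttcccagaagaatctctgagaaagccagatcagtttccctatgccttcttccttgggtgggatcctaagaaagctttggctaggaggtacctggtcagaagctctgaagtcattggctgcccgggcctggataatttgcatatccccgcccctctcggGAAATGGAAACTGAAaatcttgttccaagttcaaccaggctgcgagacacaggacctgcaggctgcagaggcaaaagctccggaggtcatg
Irf7 (chr1:205799974-205800273, minus strand): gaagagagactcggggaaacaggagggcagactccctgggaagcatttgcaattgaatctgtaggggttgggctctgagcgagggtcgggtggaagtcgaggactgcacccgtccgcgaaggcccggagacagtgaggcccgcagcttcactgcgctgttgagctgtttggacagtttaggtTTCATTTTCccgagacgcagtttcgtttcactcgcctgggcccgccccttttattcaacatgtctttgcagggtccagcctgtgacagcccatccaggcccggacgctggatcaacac
Hsph1 (chr12:10427118-10427417, plus strand): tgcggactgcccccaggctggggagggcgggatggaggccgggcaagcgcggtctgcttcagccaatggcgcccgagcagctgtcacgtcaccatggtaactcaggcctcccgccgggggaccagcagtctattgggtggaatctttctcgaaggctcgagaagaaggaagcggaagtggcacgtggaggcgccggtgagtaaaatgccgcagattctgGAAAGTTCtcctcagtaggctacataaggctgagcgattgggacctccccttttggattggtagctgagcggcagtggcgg
Hspa8 (chr8:50080264-50080563, plus strand): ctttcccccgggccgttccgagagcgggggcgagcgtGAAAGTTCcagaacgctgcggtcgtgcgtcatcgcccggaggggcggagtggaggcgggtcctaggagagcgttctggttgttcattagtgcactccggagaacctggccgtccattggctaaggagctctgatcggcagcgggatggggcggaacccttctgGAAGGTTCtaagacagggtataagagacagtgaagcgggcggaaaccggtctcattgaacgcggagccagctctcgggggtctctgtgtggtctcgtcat
The interferon letters begin 73, 67 and 17 bases before the gene start in Psmb10, 26 and 20 bases before it in Tapbp, 41 and 35 bases before it in Oas1a and 68 bases before it, on the other strand, in Irf7. The places at 73 and 67, at 26 and 20 and at 41 and 35 bases overlap each other. The heat shock letters begin 31 bases before the start in Hsph1 and 213 and 50 bases before it in Hspa8. Of 33469 rat promoters of this length, 9.71% hold the interferon letters and 8.59% the heat shock letters on either strand. Among tested interferon-induced list members with a promoter, 25 of 37 (67.6%) hold the interferon letters, and among the genes called lower and higher in air H they stand in 13 of 79 (16.5%) and 4 of 84 (4.76%). Among tested chaperone list members, 10 of 18 (55.6%) hold the heat shock letters, which stand in 11 of 84 genes called higher (13.1%) and 3 of 79 called lower (3.80%). The windows of Irf9, Oasl, RT1-A1 and Hsp90b1 do not hold the letters searched for their group. A match is a run of letters and not a bound site.

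Every interferon-induced gene that was called was lower in air H. Of the 48 tested members of a list of interferon-induced genes, 6 were called lower in air H and 0 higher. Over all tested genes, 0.853% were called lower and 0.829% higher. Of the 48, 42 had a negative log2 fold change, with a list median of -0.35 beside -0.002 over all genes. Irf9, the subunit that gives the interferon-activated STAT complex its DNA binding, had 88.6, 63.5, 84.7, 80.3, 85.7 and 80.4 CPM (counts scaled to a common library size, with TMM factors) in air H lungs. It had 130, 127, 135, 107, 111 and 94.98 CPM in air L lungs, so the groups did not overlap, and the log2 fold change was -0.55 ± 0.10 (SE, adjusted p = 0.0121 by edgeR's quasi-likelihood test). Oasl, a relative of the 2′-5′ oligoadenylate synthetases that bind viral double-stranded RNA, averaged 8.68 ± 1.0 CPM in air H and 17.6 ± 6.8 CPM in air L (SD, n = 6 each). Its log2 fold change was -1.02 ± 0.21 (SE), and the highest air L values, 24.9 and 26.04 CPM, belonged to 050 and 052 and not to 049 and 051. Oas1a, an oligoadenylate synthetase itself, had 9.07 to 14.6 CPM in air H and 12.9 to 26.8 CPM in air L, with a log2 fold change of -0.90. Irf7, the factor that amplifies type I interferon production, had a log2 fold change of -0.82 and Lgals3bp, a secreted glycoprotein, of -0.40. Mx1, an antiviral GTPase chosen after its values were seen, did not pass the test, with 67.1 to 155 CPM in air H and 146 to 249 CPM in air L. Without 049 and 051 the list median was -0.38 and 47 of 48 members were below 0, so it was as large without these libraries, and no member was called. The summed level of the 48 genes was 4075, 3004, 4116, 3496, 3420 and 3425 CPM in air H, against 4088, 5260, 4014, 5070, 4238 and 4201 CPM in air L. The air L libraries 050 and 052 were the highest of the 12, and 049 and 051 were close to the highest air H libraries. The machinery of interferon signalling (16 tested receptor, kinase and STAT genes) had 0 called members and a median of -0.05.

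Of 20 tested antigen presentation genes, 4 were called lower in air H and 0 higher, and the summed level of the list overlapped between the groups. Over all tested genes, 0.853% were called lower and 0.829% higher. Psmb10, a catalytic subunit of the immunoproteasome that cuts peptides for class I, had 38.5, 28.4, 30.2, 29.7, 34.03 and 37.5 CPM in air H lungs and 94.3, 64.1, 89.6, 54.5, 38.3 and 48.1 CPM in air L lungs. Its 053 value of 38.3 CPM fell just below the highest air H value, and the log2 fold change was -0.97 ± 0.17 (SE, adjusted p = 0.0121), or -0.63 without 049 and 051. Tap1, a subunit of the transporter that carries peptides into the endoplasmic reticulum, had 63.2, 47.1, 73.9, 59.4, 60.9 and 69.6 CPM in air H and 108, 113, 121, 114, 65.2 and 75.1 CPM in air L. Air L animal 053 lay within the air H range and 054 just above it, and the log2 fold change was -0.67 ± 0.14 (SE, adjusted p = 0.0236). Tapbp, the tapasin that bridges the transporter to the class I molecule, averaged 72.8 ± 13 CPM in air H and 117 ± 30 CPM in air L (SD, n = 6 each). RT1-A1, a class I heavy chain of the rat MHC, had a log2 fold change of -0.95, and RT1-CE7, another class I gene, of -0.61 with no overlap between the groups. The RT1 genes share reads with near-identical copies, so which copy changed is uncertain. Tap2 had a log2 fold change of 0.70, opposite in sign to Tap1, and B2m of 0.18, neither called. The 20 genes thus did not all point one way (15 below 0, 5 above). The list median was -0.27, and -0.18 without 049 and 051, beside -0.002 over all genes with all 12 libraries. The summed level of the list was 3480 to 4272 CPM in air H and 3667 to 4160 CPM in air L. Tap1, Psmb8 and Psmb9 are members of both lists.

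**Figure D2:**
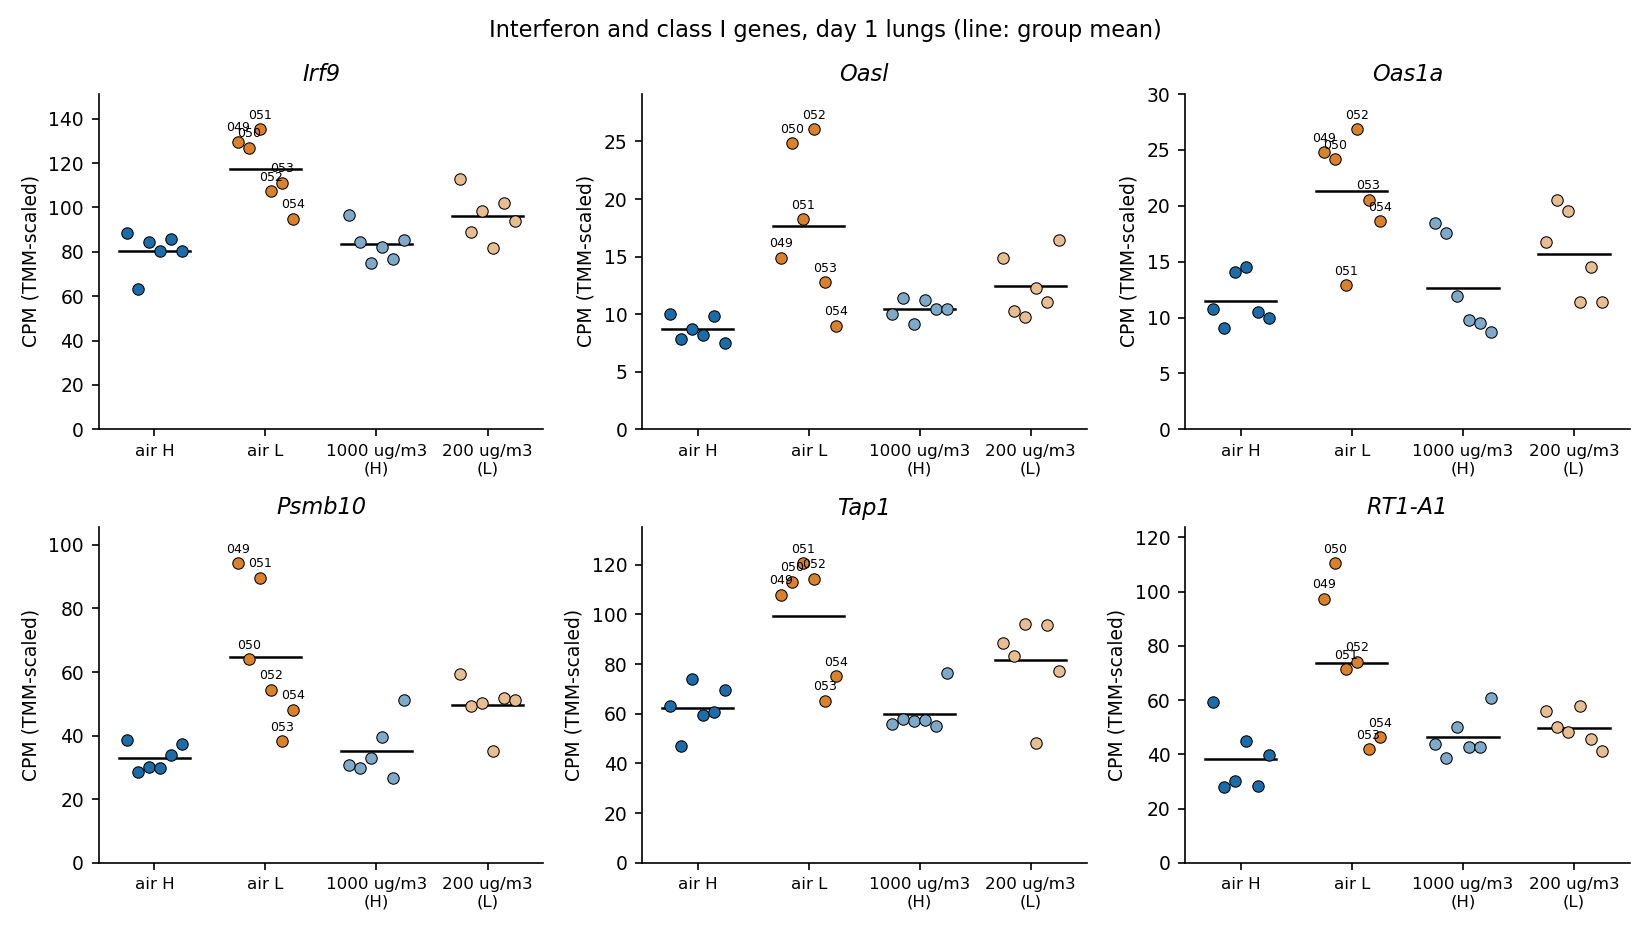
TMM-scaled CPM of Irf9, Oasl, Oas1a, Psmb10, Tap1 and RT1-A1 in each lung of day 1, in air H, air L, 1000 ug/m3 (H) and 200 ug/m3 (L) animals, with a line at each group's mean and air L points marked with their animal numbers. Air H lungs lie at 63.5 to 88.6 CPM of Irf9 and air L lungs at 94.98 to 135 CPM, and air L animals 053 and 054 are the air L points closest to air H for Psmb10 and Tap1.

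The heat shock chaperones that were called were all higher in air H. Of 22 tested chaperone genes, 3 were called higher and 0 lower, beside 0.829% higher and 0.853% lower of all tested genes. Of the 22, 17 had a positive log2 fold change. The list median was 0.22, or 0.26 without 049 and 051. Hsph1, a large chaperone of the HSP110 family, had 114, 98.5, 159, 161, 112 and 121 CPM in air H and 91.8, 84.4, 83.5, 93.1, 87.2 and 70.6 CPM in air L. The groups did not overlap, and the log2 fold change was 0.58 ± 0.12 (SE, adjusted p = 0.0148), or 0.61 without 049 and 051. Hspa8, the constitutive HSC70 chaperone, had 116, 129, 112, 167, 144 and 134 CPM in air H and 91.8, 96.8, 87.3, 103, 97.8 and 102 CPM in air L, again without overlap (log2 fold change 0.48 ± 0.10 SE, adjusted p = 0.0151). Hsp90b1, the HSP90 of the endoplasmic reticulum, averaged 759 ± 62 CPM in air H and 522 ± 100 CPM in air L, with 049 and 051 lowest (SD, n = 6 each). Calr, a chaperone that retains calcium in the endoplasmic reticulum, was the 1 called member among 14 genes of the unfolded protein response, with a log2 fold change of 0.30, or 0.25 without 049 and 051. The median of those 14 genes was 0.11 with and without these libraries. The cytosolic inducible genes Hsp90aa1 and Hspa1b had log2 fold changes of 0.67 and 0.53 and did not pass the test. The summed level of the 22 chaperones was 4028 to 4660 CPM in air H and 3344 to 3793 CPM in air L, so that every air H lung lay above every air L lung. In the exposed lungs of day 1 the list median was -0.006.

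The remaining genes with the smallest p-values higher in air H came from several functions. Fmo2, the flavin monooxygenase of lung that oxidises amines and sulphides, had 506, 639, 783, 628, 740 and 455 CPM in air H and 420, 470, 395, 444, 345 and 348 CPM in air L, with 1 air H lung inside the air L range. Its log2 fold change was 0.63 ± 0.11 (SE, adjusted p = 0.0121), and it was the 1 called gene among 22 xenobiotic-metabolising enzymes. Gnptab, which tags lysosomal enzymes with the mannose phosphate signal, Pik3r1, a regulatory subunit of phosphatidylinositol 3-kinase, Kcnj15, an inward-rectifier potassium channel, and Dock9, a factor that activates the GTPase Cdc42, were higher by 0.50, 0.45, 0.50 and 0.39 on the log2 scale, all without overlap. Lars, the cytosolic leucyl-tRNA synthetase, and Anxa3, a calcium-dependent membrane-binding annexin, were higher by 0.53 and 0.51 and overlapped at the edge. Without 049 and 051 the values were 0.43 for Gnptab, 0.31 for Pik3r1, 0.40 for Kcnj15, 0.31 for Dock9, 0.40 for Lars and 0.43 for Anxa3. Akap5, an anchoring protein for protein kinase A and a type I cell marker in these lists, had 646 to 841 CPM in air H and 254 to 544 CPM in air L. Its log2 fold change was 0.81 ± 0.20 (SE, adjusted p = 0.0484), and 0.59 without 049 and 051, the 2 lowest air L lungs. Ufsp2, a protease for the ubiquitin-like modifier UFM1, was higher by 0.85 and Pf4, platelet factor 4, by 0.83. Heyl, a transcription factor induced by Notch, was higher by 0.77.

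Outside the interferon and class I lists, 3 further genes with small p-values were lower in air H without overlap between the groups. Vbp1, a subunit of the prefoldin that hands new actin and tubulin chains to a chaperonin, had 13.9, 17.5, 18.8, 15.7, 17.7 and 17.5 CPM in air H and 39.1, 35.3, 37.97, 31.6, 25.5 and 20.5 CPM in air L. Air L animals 053 and 054 were again the lowest of their group, and the log2 fold change was -0.90 ± 0.19 (SE, adjusted p = 0.0195), or -0.73 without 049 and 051. Rcn3, a calcium-binding protein of the secretory pathway, averaged 36.7 ± 4.0 CPM in air H and 53.2 ± 7.7 CPM in air L (SD, n = 6 each). Ndfip1, an adaptor that recruits NEDD4-family ubiquitin ligases, averaged 132 ± 12 CPM in air H and 177 ± 26 CPM in air L (SD, n = 6 each).

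**Figure D3:**
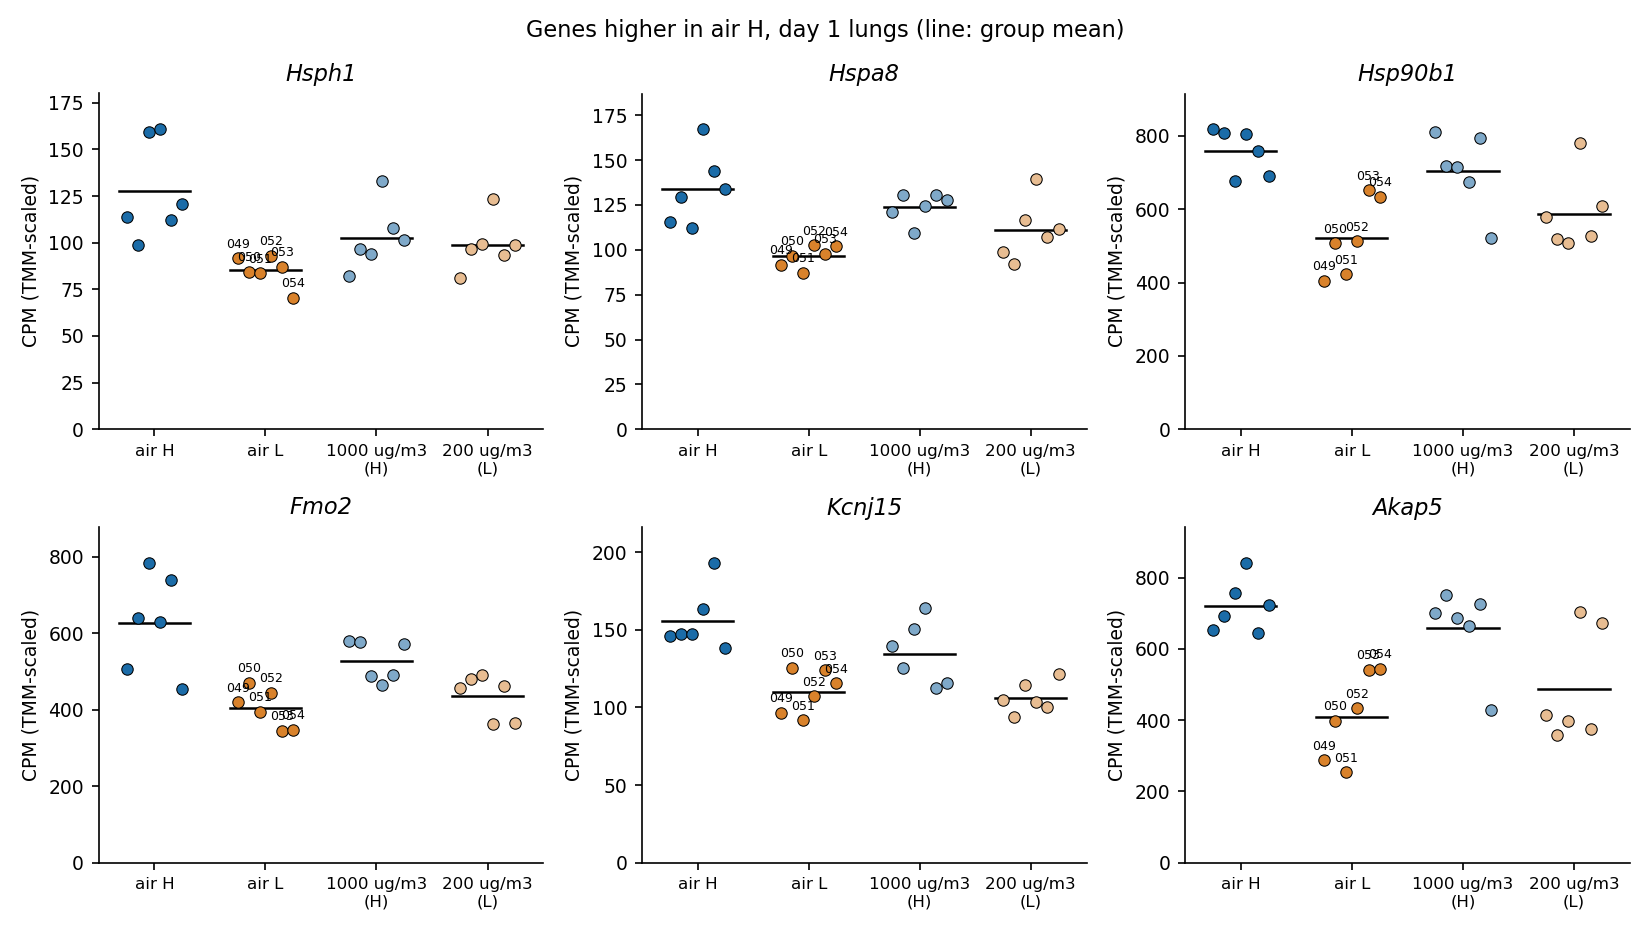
TMM-scaled CPM of Hsph1, Hspa8, Hsp90b1, Fmo2, Kcnj15 and Akap5 in each lung of day 1, in air H, air L, 1000 ug/m3 (H) and 200 ug/m3 (L) animals, with a line at each group's mean and air L points marked with their animal numbers. Every air H lung lies above every air L lung for 5 of the 6 genes, and 1 air H lung, at 455 CPM, overlaps air L for Fmo2.

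Terc and Tmem107 had the largest called differences among the named genes, and in both the air L libraries 049 and 051 were the highest and 053 and 054 the lowest. Terc, the RNA subunit of telomerase, had 7.70, 8.46, 8.73, 5.24, 7.85 and 11.2 CPM in air H and 64.5, 33.4, 79.7, 20.5, 13.5 and 10.3 CPM in air L. The values of 053 and 054 lay closest to air H, with a log2 fold change of -2.13 ± 0.52 (SE, adjusted p = 0.0475) and -1.21 without 049 and 051. Rmrp had a log2 fold change of -2.02 ± 0.58 (SE) and did not pass the test (adjusted p = 0.0707). Without 049 and 051 the Rmrp value was -0.80, and with 1 surrogate variable it turned to 0.10. Tmem107, a ciliary transition zone protein within whose human gene a small nucleolar RNA gene lies, had 10.1 to 16.3 CPM in air H and 13.5 to 75.7 CPM in air L. Its log2 fold change was -1.70, against -0.96 without 049 and 051. Plac8, Cpne7, Ramp1 and Tspo had log2 fold changes of -1.23, -1.201, -1.04 and -0.94, or -1.33, -0.96, -0.71 and -0.57 without 049 and 051, with 4.66 to 13.7 CPM of Plac8 in air H and 7.70 to 26.8 CPM in air L.

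Called genes in the lung cell type lists pointed in both directions. The lists named here are those that held a call, and 1.68% of all tested genes were called. The lists of club cells, ciliated cells and fibroblasts, among others, held 0 called genes. The lung markers were present throughout, Sftpc of type II cells at 3524 to 5352 CPM in air H and 3924 to 4594 CPM in air L, while the adipocyte markers Adipoq and Plin1, the B cell marker Cd79a and the skeletal muscle marker Acta1 had 3, 2, 4 and 9 counts in the 12 libraries together. Nkx2-1, the master transcription factor of lung epithelium, was lower in air H, at 77.03, 117, 136, 82.7, 81.2 and 93.7 CPM against 140, 142, 146, 143, 135 and 134 CPM in air L. Air L lungs were tightly grouped and 1 of 6 air H lungs reached them, with a log2 fold change of -0.51 ± 0.11 (SE, adjusted p = 0.0236), the same size without 049 and 051 at -0.50. Nkx2-1 was the 1 called gene of 14 type II cell genes, whose median was -0.12, or 0.03 without 049 and 051. Cldn18, a claudin of alveolar epithelium, had a log2 fold change of -0.35, or -0.18 without 049 and 051. Cldn18 and Akap5 were the called genes among 13 type I cell genes. In the endothelium, Tek, the angiopoietin receptor, was higher by 0.28 with no overlap, at 678 to 777 CPM in air H and 585 to 622 CPM in air L. Its relative Tie1 was lower by 0.52, at 225 to 328 CPM in air H and 277 to 440 CPM in air L, where animal 003 at 328 CPM stood apart from the other air H lungs. Without 049 and 051 the log2 fold change was 0.28 for Tek and -0.35 for Tie1, and the median of 18 endothelial genes was 0.04, against 0.05 with all libraries. Tagln, a smooth muscle actin-binding protein, was the 1 called member of 12 smooth muscle genes, with a log2 fold change of -0.50, or -0.30 without 049 and 051. The smooth muscle median was -0.12, or -0.17 without them. For 14 T cell genes, Lat, an adaptor of the T cell receptor, was called lower by 0.91, 11 of 14 were below 0, and the list median was -0.34, or -0.31 without 049 and 051. Nfkb2, an NF-kB subunit, was the 1 called of 14 cytokine and NF-kB genes, with a log2 fold change of -0.58, or -0.37 without 049 and 051. Of 36 ribosomal protein genes, which have many near-identical pseudogenes and are uncertain for that reason, Rps2, Rpl18 and Rps16 were called lower, with a list median of -0.13, or -0.06 without 049 and 051.

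The other 28 of the 41 gene lists had 0 called members. Among them was the glucocorticoid response, whose 12 tested members had the highest median, 0.31, or 0.34 without 049 and 051, with 10 above 0. Zbtb16, Pdk4, Fkbp5 and Per1 in that list had log2 fold changes of 1.97, 0.71, 0.62 and 0.58. These genes were picked with their values known, all from the positive side, and 2 of the 12 members were below 0. Klf9, also in that list, overlapped between the groups, at 75.5 to 121.6 CPM in air H and 69.1 to 81.5 CPM in air L. None of the 12 passed the test. The 16 circadian clock genes had a median of 0.04, or 0.06 without 049 and 051. Within it Nr1d1, a repressor of the clock, was 7.08 to 16.1 CPM in air H and 17.7 to 29.5 CPM in air L, a log2 fold change of -1.01 ± 0.41 (SE) that did not pass the test (adjusted p = 0.17). Nr1d1 was chosen after its values were seen. Genes of the aryl hydrocarbon receptor (5 tested, median 0.14 with and without these libraries) and of NRF2 (14 tested, median -0.08, or -0.04 without them) had no called member, and Cyp1a1, the enzyme that this receptor induces, had a log2 fold change of 0.53 ± 0.45 (SE) over a wide spread of 3.08 to 29.01 CPM in air H and 5.89 to 21.1 CPM in air L. The 10 clustered histone genes had a median of -0.32, and -0.33 without 049 and 051.

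**Figure D4:**
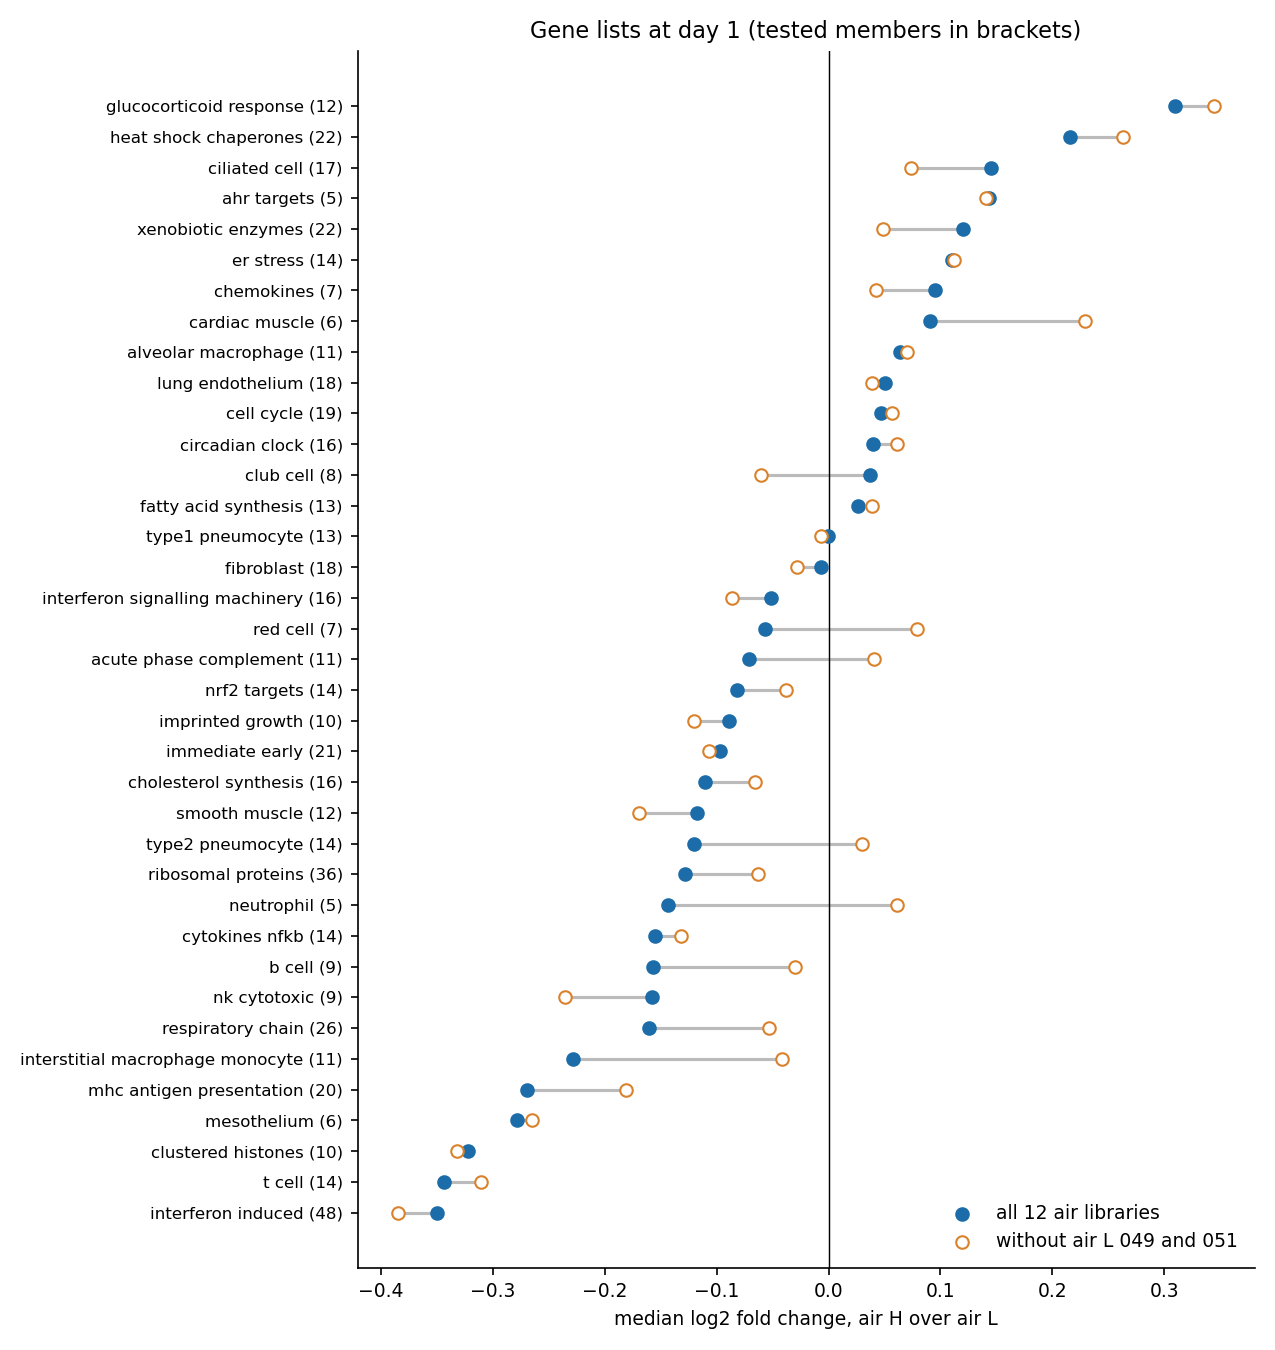
Median log2 fold change, air H over air L, of the tested members of each gene list with at least 5 tested genes, with all 12 air libraries (filled) and without air L 049 and 051 (open). Interferon-induced genes are lowest at -0.35 and -0.38, and glucocorticoid response and heat shock genes are highest at 0.31 and 0.22 with all 12 libraries.

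In the exposed animals of day 1 the H over L comparison sets 1000 ug/m3 against 200 ug/m3, 6 animals each, and shares no animal with the air comparison, although dose and letter cannot be told apart. In it, 0 of 12304 genes were called (0%) in the edgeR fit, 1536 had an unadjusted p under 0.05, and DESeq2 called 19. Of the 207 genes called in air, 193 (93.2%) had the same sign there, against 67.7% of all tested genes. The same sign together with an unadjusted p under 0.05 was found for 84 of the 207 and for 1326 of all 12304. The median was 0.169 for the genes higher in air H, where the air median was 0.42, and -0.268 for those lower, where it was -0.56. The 207 were chosen for their air contrast, so the choice itself favours smaller values in the exposed lungs. Per library, the genes called lower in air H stood at a median log2 distance of -0.01 to 0.29 from the air H mean in the 1000 ug/m3 lungs, where animal 030 was the highest. It was 0.06 to 0.55 in the 200 ug/m3 lungs, where 060 and 062 were the lowest. Psmb10 had -0.50, Tap1 -0.45, Kcnj15 0.35 and Anxa3 0.37 there. Hsph1 (0.06) and RT1-CE7 (-0.05) had the sign of the air contrast but values near 0, and Plac8 (0.38) had the opposite sign. The interferon list had a median of 0.06 there and -0.35 in air. The difference between the contrasts was called for 1 gene of 12304 (0.00813%), Adcy1, an adenylate cyclase outside the rule for named genes, and for 0 of the 207. Adcy1 was 17.5 to 23.5 CPM in air H and 21.1 to 37.3 CPM in air L, but 15.2 to 51.3 CPM at 1000 ug/m3 and 13.1 to 23.1 CPM at 200 ug/m3. Across the 12304 genes, which are not independent replicates, the log2 fold changes correlated at Pearson's r = 0.429 and Spearman's rho = 0.449, a description only, since gene length, expression and library composition are shared.

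**Figure D5:**
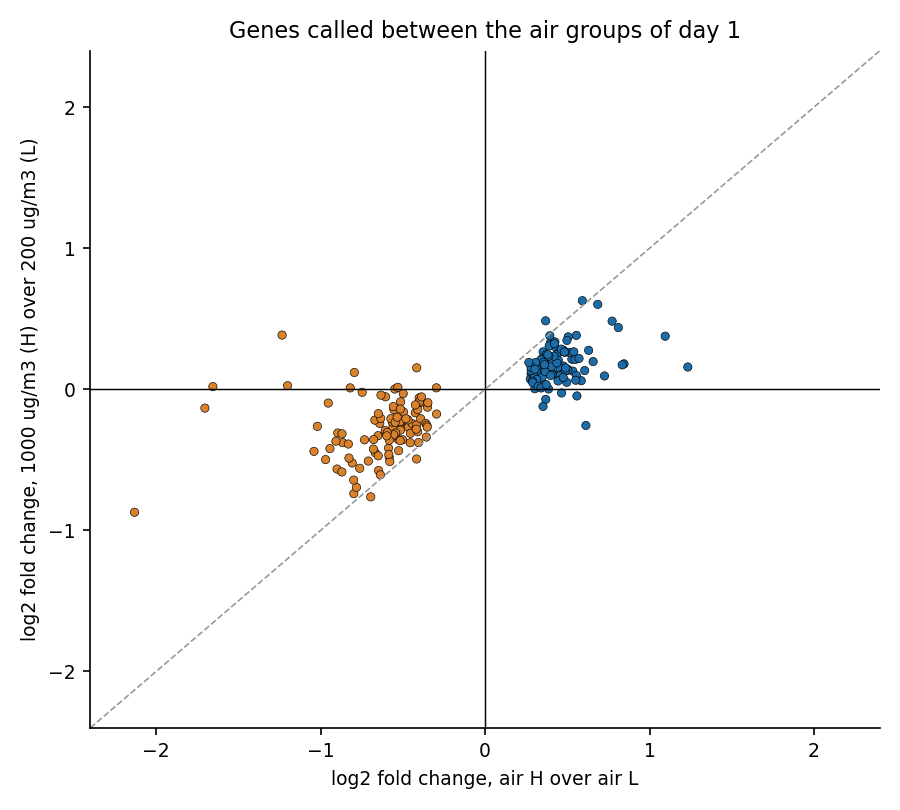
Log2 fold change, 1000 ug/m3 (H) over 200 ug/m3 (L), against that of air H over air L, for the 207 genes called between the air groups (1 point per gene, blue higher in air H, orange lower in air H, dashed line at equality). The same sign is shared by 193 of the 207 genes. The exposed changes are mostly smaller than the air changes, which the choice of genes by their air contrast favours.

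The air H and air L animals of the later days are further comparisons with the same letters in other animals. At day 7, 3653 of 14331 tested genes were called between air H and air L (25.5%), and at day 27, 2071 of 14761 (14%). Of the 206 genes of day 1 tested there, 90 had the same sign at day 7 (43.7%, against 46.1% of all tested) and 98 at day 27 (47.6%, against 47.6%). The air contrasts were tested directly for a difference between days, which called 3050 genes for day 7 (20.9%) and 1976 for day 27 (13.6%). It called 157 of the 207 day 1 genes for day 7 and 144 for day 27. The 207 were chosen for their day 1 contrast, which enters this difference, so a larger share among them is built in. Of 14 genes with values given here by day, the difference was called for 7 at day 7 and 11 at day 27. These 14 were also chosen as called at day 1, so the same holds for them. Psmb10 had a log2 fold change of 0.17 at day 7 and -0.02 at day 27, and Hsph1 had 0.08 at day 7 and -0.84 at day 27, with -0.97 and 0.58 at day 1. Anxa3 had 0.39 at day 7 and -0.24 at day 27, against 0.51 at day 1.

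The air H animals themselves bear 2 series of numbers, 001 to 004 and 025 and 026, whose meaning the labels do not give. Between them, 0 of 13016 tested genes were called (0%) by edgeR and 0 by DESeq2, with 766 at an unadjusted p under 0.05. With only 001 to 004 in air H, 93 genes were called against air L, and with only 025 and 026 in air H, 0 genes. With 2 animals in the smaller series, these counts say little about whether the series differ.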

How the data were processed

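Lung RNA of 12 filtered-air rats of day 1 was compared, 6 per letter. The authors deposited raw read counts per gene symbol, 1 column per library; tools listed without roles in the submitters' processing notes are HTSeq 0.6.1, HISAT2 2.1.0, Trimmomatic 0.35, SAMtools 1.8 and bcl2fastq 2.19, and the build is Rnor_6.0. The strand setting of the counting is not given in the sources used here, so antisense and overlapping genes are uncertain. Groups came from the titles. The 24 day 1 libraries (4 groups of 6) entered 1 edgeR 4.0.16 quasi-likelihood fit in R 4.3.3, with TMM factors, filterByExpr and robust dispersions. Standard errors derive from the F statistic, and levels are TMM-scaled CPM, which do not correct for gene length. Fold changes are air H over air L. Days 7 and 27 were fitted likewise, and day differences came from 1 fit of the air libraries of all days. DESeq2 1.42.0, limma-voom 3.58.1, sva 3.50.0 and other settings were alternatives. On simulated counts for the day 1 comparison (12304 genes), the fit called 56 of 100 genes changed 1.5-fold, 96 of 100 changed 2-fold and 7 unchanged genes. The changed genes were drawn from those with an expected count of at least 20. The simulated libraries were independent, without the differences shared by libraries such as 049 and 051, so these rates may not hold for the real libraries. The closest pair of libraries within an air group, 053 and 054, had a chi-square per degree of freedom of 1.26 over genes with at least 20 counts. The pair 049 and 051 had 1.79, and the other air L pairs had 2.53 to 9.24. No pair was identical, and each library was counted as 1 animal. Whether close pairs are independent was not tested, and p-values would be too small if they are not. Permutation and counting intervals cover the spread between animals only. Of 731 gene-list entries in 41 lists, 704 were found in the table. The members and lists were chosen with earlier results of these data known. Named genes were called genes with a mean log2 CPM of at least 0, a symbol that is not an identifier and at least 5 of 6 air H libraries beyond the air L mean: the 12 smallest p and the 6 largest changes in each direction, plus up to 4 called members per list, or the 1 with the smallest p where none was called. Other genes were picked with their values known, and not all of them are marked as such. The number of columns not mapped to a sample was 0.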

Additional observations from a re-analysis of the deposited data

Results flagged for a closer look

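Among 150 groups of 6 libraries checked (75 named genes in air H and in air L), 6 held a library far from the others by Dixon's criterion, and chance flags about 1 in 20. In each it was an air H animal: 002 for Irf9 (63.5 CPM, the lowest) and Tmem107 (16.3 CPM, the highest), 003 for Tie1 (328 CPM, the highest), 025 for Plac8 (13.7 CPM, the highest), and 001 for Bub1 (23.9 CPM) and Myl7 (12.3 CPM), both the highest.

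For 14 genes the air H over air L contrast of day 1 was set against that of the later days in other animals, and the difference itself was tested in the edgeR fit. All 14 were chosen as called at day 1, and that contrast enters the difference, so the choice favours called differences. Against day 7 the day 1 log2 change was larger by 0.45 for Gnptab, 0.63 for Lars, 0.45 for Pik3r1 and 0.65 for Kcnj15, and lower by a difference of -1.14 for Psmb10, -0.61 for Tie1 and -0.92 for Tap1. Against day 27 the differences were 0.48 for Gnptab, 0.60 for Lars, 0.75 for Anxa3, 0.66 for Kcnj15, 1.44 for Hsph1 and 1.26 for Hspa8. They were -0.45 for Irf9, -0.95 for Psmb10, -1.40 for Vbp1, -1.15 for Oasl and -0.57 for Tie1. Day, cohort and library preparation cannot be told apart.

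Adcy1 differed between the air contrast and the exposed contrast of day 1 by -1.60 on the log2 scale, the 1 gene called for that difference.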

How the results depend on the processing

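The number of genes called between air H and air L was 207. It was 206 with RLE factors, 200 without scaling (86 higher, 114 lower), 167 with no filter, 176 with limma-voom, 240 with non-robust dispersions and 141 with only the 12 air libraries. It was 129 with a filter of 1 CPM in 6 libraries, 446 with DESeq2 (171 shared), 1016 with all 72 libraries (194 shared), 3 with 1 surrogate variable, 0 with a fold limit of 1.5, 93 with air H 001 to 004 only and 0 with 025 and 026 only. At adjusted p thresholds of 0.1 and 0.01 it was 775 and 0. In alternatives added after seeing the data it was 0 without air L 049 and 051, 1635 without 053 and 054, and 4 with the wide-gene share as covariate. Leaving out 1 library gave 2 (air H 004) to 869 (air L 053), with 5 without 049 and 5 without 051. The cause was not tested. In exposed lungs 0 genes became 6 with no filter, 19 with DESeq2 and 150 with all 72 libraries. The 1 gene of the difference between contrasts became 2 with DESeq2 and 0 with limma-voom and all 72 libraries. None of the 47 called named genes changed sign in any setting run. These settings reuse libraries of the fit that chose the genes, so a kept sign is no separate support.

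Among named genes that were not called, signs reversed to 0.049 (Srebf1) and 0.060 (Krt19) with 1 surrogate variable, to 0.041 (Srebf1) and 0.076 (Krt19) with the wide-gene share, to 0.37 (Scgb3a1) and 0.16 (Tnnt3) without 053 and 054, and to 0.084 (Myl7) without 049 and 051. Tnnt3 also reversed with limma-voom (0.040) and with 025 and 026 only (0.24), and its value with single libraries left out ranged from -0.14 to 0.25. No paired analysis was possible because the labels pair no animals and the groups share no animal numbers. Library totals of 1288275 to 2397971 counts limit what low genes can show.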
